A study of Homo sapiens with 12 samples.

Results

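The genes described here are 42 genes of mitosis: those that build the kinetochore and its checkpoint, condense the chromosomes, form the spindle, release the sister chromatids and divide the cell, with a few of their regulators. They were taken by symbol from a list of named genes, chosen with earlier results of these data known. Of the 42, 40 had a probe set listed for that gene alone, among 11963 genes tested. The expression of NUF2 and ANLN was not analysed here. The cells were MDA-MB-231, a human breast cancer line, held for 24 h in the vehicle DMSO, in 5 uM SAHA, in 2.5 mM pargyline, or in 5 uM SAHA with 2.5 mM pargyline. SAHA (vorinostat) inhibits histone deacetylases, and pargyline is a monoamine oxidase inhibitor that has also been used against the related histone demethylase LSD1. Each of the 4 groups had 3 arrays, which the labels give as biological replicates, so the p-values measure the spread between cultures of 1 line. That spread was pooled over the 4 groups, so a comparison of 2 groups also carries the spread of the others. The design asks what each drug did to these genes and whether the effect of both together differed from the sum of their single effects.

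At the start of mitosis condensins and topoisomerase compact the chromosomes, CDC25 phosphatases activate the cyclin-dependent kinase that drives entry, and kinetochores assemble on centromeres to catch spindle microtubules. Unattached kinetochores keep the checkpoint on, which holds back CDC20 and with it the anaphase-promoting complex (APC/C), until securin can be destroyed and separase can cut cohesin. Many of these genes are transcribed late in the cell cycle through promoter elements bound by the MuvB complex, with FOXM1 or B-MYB as activating partners and the DREAM complex as the repressing form.

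In the cultures that received both drugs, 39 of the 40 genes fell against DMSO and 1, CKS2, rose. The median over the 40 was a log2 change of -1.81, and 33 of the falls were at least 2-fold. SAHA alone lowered 36 of the 40, with a median of -1.10 and 22 falls of at least 2-fold. Pargyline alone lowered 20, with a median of -0.54 and 2 falls of at least 2-fold, in CDC20 and CCNF. No member rose with either single drug. Over all genes tested the medians were 0.00 with SAHA, -0.02 with pargyline and -0.01 with both. The test was limma's, with p-values adjusted by Benjamini-Hochberg across the 11963 genes, and a gene passed when the adjusted p was below 0.05. By that rule 23.1% of all genes fell and 23% rose with SAHA, 7.45% fell and 8.48% rose with pargyline, and 24% fell and 24.3% rose with both. Falls of at least 2-fold made up 8.75%, 0.351% and 9.76% of all genes in the same order. The 3 comparisons share the DMSO arrays, so they are not independent of each other. Because the genes were chosen with earlier results known, the shares beside them are a description and not a test. In RNA from whole cultures, fewer dividing cells and less of a transcript in each dividing cell cannot be told apart.

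**Figure D1:**
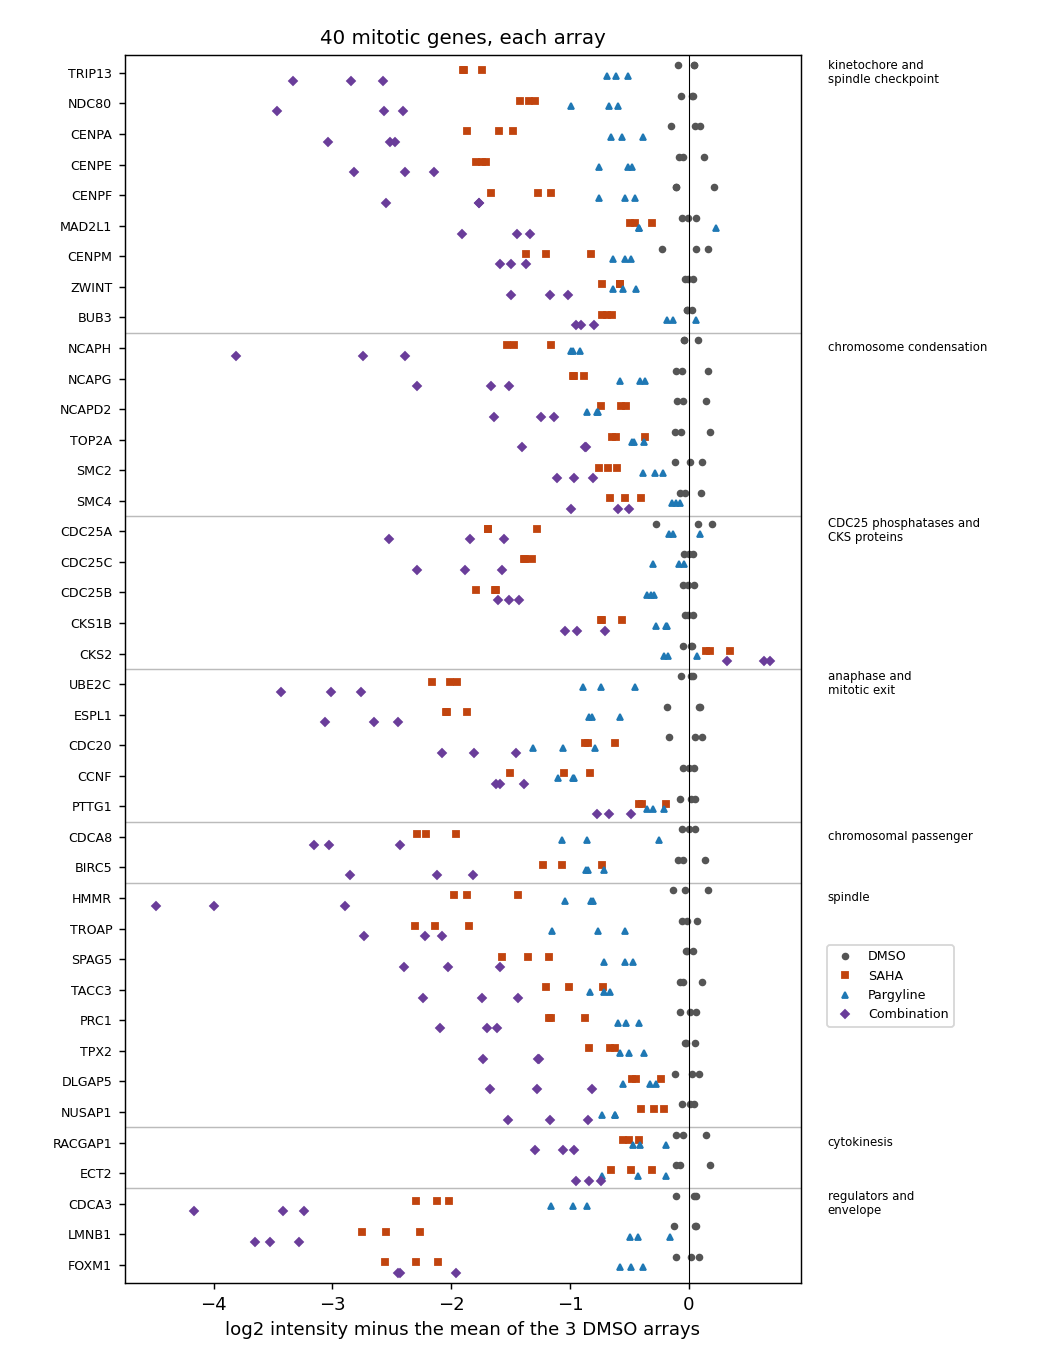
Every array's value of the 40 genes (y axis, grouped by role) as log2 intensity minus the mean of the 3 DMSO arrays (x axis), with 1 point per array. The combination points lie farthest to the left in most rows, pargyline points lie near or a little left of 0, and CKS2 is the only row whose SAHA and combination points all lie right of 0.

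The promoters of these genes were examined because so many members moved together. RefSeq windows on GRCh38.p14, from 250 bases before to 50 bases after each start, were at hand for 34 of the 42 genes. The cell cycle genes homology region (CHR) is the element that the MuvB complex contacts, searched here as TTTGAA or TTCGAA on both strands; the first reads TTCAAA from the other strand. The CCAAT box, bound by NF-Y, was searched as CCAAT, which reads ATTGG from the other strand. A CHR match lay in a window of 28 of the 34 genes (82.4%), against 1649 of the 9563 tested genes with a window (17.2%). These shares count NUF2 and ANLN, which have windows but no expression value here; over the 32 measured members with a window the CHR share was 26 (81.2%). A CCAAT match was present for 24 of the 34 (70.6%), against 44.2% of all. Both lay in 1 window for 20 genes (58.8%), against 7.3%. An E2F match, TTTGGCGC or TTTCGCGC on both strands, was found for 2 of the 34 (5.88%), CDC25A and NUSAP1, against 2.22% of all. Other spellings of the E2F site, such as the TTTCCCGC in the window of CENPA, were not searched. The shares therefore do not count all E2F sites. Matches may overlap each other, and a match is a description of the letters only. With TTTGAA alone the CHR shares were 76.5% and 15.6%, and on the strand of the gene alone they were 67.6% and 11.1%. The windows of CDC25A, CENPE, LMNB1, NCAPH, PTTG1 and TACC3 held no CHR match.

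The stretches below are the 120 bases before the start, 5′ to 3′ on the strand of the gene, with CHR and CCAAT matches in capitals. They show the genes on which the comparison of members turns: the deepest fall (HMMR), mitotic exit (CDC20, ESPL1), the central spindle and passenger complex (PRC1, CDCA8), the CKS pair that moved in opposite directions, and NCAPH, which fell with no CHR match.
HMMR: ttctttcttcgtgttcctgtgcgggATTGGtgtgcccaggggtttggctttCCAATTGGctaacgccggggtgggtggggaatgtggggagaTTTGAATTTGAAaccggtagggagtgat
CDC20: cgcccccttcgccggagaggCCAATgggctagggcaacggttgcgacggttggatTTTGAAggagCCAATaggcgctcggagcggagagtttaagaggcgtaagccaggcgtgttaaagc
ESPL1: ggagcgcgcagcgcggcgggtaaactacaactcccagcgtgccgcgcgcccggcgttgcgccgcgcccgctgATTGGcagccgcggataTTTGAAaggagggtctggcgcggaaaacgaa
PRC1: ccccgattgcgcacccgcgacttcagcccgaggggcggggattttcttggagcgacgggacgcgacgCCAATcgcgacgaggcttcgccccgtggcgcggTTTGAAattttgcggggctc
CDCA8: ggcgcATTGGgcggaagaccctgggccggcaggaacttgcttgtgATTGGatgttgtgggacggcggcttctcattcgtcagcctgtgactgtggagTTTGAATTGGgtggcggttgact
CKS1B: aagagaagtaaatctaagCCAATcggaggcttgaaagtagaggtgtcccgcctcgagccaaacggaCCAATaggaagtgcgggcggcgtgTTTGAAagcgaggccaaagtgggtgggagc
CKS2: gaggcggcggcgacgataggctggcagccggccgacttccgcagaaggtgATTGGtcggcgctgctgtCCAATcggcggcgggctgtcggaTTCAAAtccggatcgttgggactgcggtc
NCAPH: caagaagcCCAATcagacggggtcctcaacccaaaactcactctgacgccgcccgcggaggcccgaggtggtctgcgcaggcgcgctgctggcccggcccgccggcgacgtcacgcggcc

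Their positions on GRCh38.p14 are chr5:163460512-163460631 for HMMR, chr1:43358861-43358980 for CDC20, chr12:53268179-53268298 for ESPL1 and chr15:90994536-90994655 for PRC1. The others are chr1:37692396-37692515 for CDCA8, chr1:154974561-154974680 for CKS1B, chr9:89311075-89311194 for CKS2 and chr2:96335646-96335765 for NCAPH. PRC1 is on the minus strand and the other 7 on the plus strand, and each stretch ends at the base before the start. HMMR carries 2 CHR matches in a row, and in CDCA8 the CHR match shares its last base with a CCAAT match. CKS1B and CKS2 both have a CHR match about 30 bases before the start, at -30 and -29, with CCAAT matches upstream of it. With both drugs the 26 measured genes with a CHR match had a median log2 change of -1.67, with a range from -3.79 to 0.55. The 6 without one had a median of -2.21, from -3.49 to -0.64. With SAHA the medians were -1.01 and -1.47, and with pargyline -0.54 and -0.47. The riser CKS2 is among the genes with a match.

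All 40 genes were in the brighter part of the array: their mean log2 values over the 12 arrays ran from 8.03 upwards, where the median gene was at 7.06. In the DMSO arrays the mesenchymal genes VIM, CD44 and SPARC read 14.90, 13.68 and 9.37. There ESR1, PGR and CDH1 read 3.11, 2.17 and 2.11, in a table whose values ran from 0.47 to 15.87. ERBB2, also looked at as a gene that should be low in this line, was not low in the DMSO arrays, at 8.28. The leukocyte genes PTPRC, CD3E and CD14 read 2.55, 1.73 and 1.81 there. Array medians lay between 5.15 and 5.38, and replicates of a group correlated at 0.998 to 0.999 over probe sets. The gap between 3′ and 5′ control probe sets widens as RNA is less intact. For ACTB the 3′ control probe set exceeded the 5′ one by 0.79 ± 0.03 in the vehicle arrays, 0.84 ± 0.07 for SAHA, 0.80 ± 0.17 for pargyline and 0.89 ± 0.05 for the combination (SD, n = 3 each). For GAPDH the same difference had group means from -0.0034 to 0.0192, the highest in the vehicle arrays. The part of either measure in the results was not tested. The second combination array stood apart for these genes, and whether it did so over all genes was not counted. Its value was the lowest of the 3 combination arrays in 39 of the 40 genes, and the highest in CKS2. Its median over the 40 was -2.17 against the DMSO mean, with -1.51 on combination array 1 and -1.72 on array 3. The SAHA arrays gave -0.92, -1.11 and -1.21, and the pargyline arrays -0.47, -0.52 and -0.58. The median SD of a member between replicates was 0.31 with both drugs, against 0.09 with DMSO and 0.13 with either drug alone. The test used a spread pooled over these groups in every comparison. Without the second combination array the median against DMSO was -1.61, and 39 genes still passed as lower, against 22.1% of all genes.

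Among kinetochore and checkpoint genes, 9 were measured, and 8 fell with SAHA, 4 with pargyline and all 9 with both drugs. CENPA is the histone that marks the centromere. It read 9.53, 9.50 and 9.29 with DMSO, 7.96, 7.84 and 7.57 with SAHA, 9.06, 8.88 and 8.79 with pargyline, and 6.92, 6.40 and 6.97 with both. The 4 groups did not overlap, and the log2 changes against DMSO were -1.65 ± 0.16 (standard error) with SAHA, -0.53 ± 0.16 with pargyline and -2.67 ± 0.16 with both, at adjusted p of 1.55e-05, 0.0515 and 5.42e-07. CENPE, the motor that carries chromosomes to the spindle equator, read 11.14, 11.18 and 11.36 with DMSO, 9.52, 9.49 and 9.43 with SAHA, 10.75, 10.71 and 10.47 with pargyline, and 9.08, 8.41 and 8.84 with both. Again no group overlapped another, and all 3 treatments passed as lower, by -1.75, -0.58 and -2.45.

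CENPF, a large protein of the outer kinetochore, read 11.75, 11.74 and 12.07 with DMSO, 10.58, 10.19 and 10.69 with SAHA, 11.40, 11.10 and 11.31 with pargyline, and 10.08, 9.30 and 10.09 with both. Its fall was -1.36 ± 0.22 with SAHA and -2.03 ± 0.22 with both. The pargyline difference of -0.58 did not pass (adjusted p 0.115), although its arrays lay below every DMSO array. NDC80, the microtubule-binding part of the kinetochore, read 11.08, 10.98 and 11.09 with DMSO, 9.76, 9.63 and 9.71 with SAHA, 10.46, 10.38 and 10.06 with pargyline, and 8.64, 7.58 and 8.48 with both. It changed by -1.46 ± 0.23 from SAHA to the combination (adjusted p 0.00321), among the deeper falls of that comparison.

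The checkpoint genes differed among themselves. MAD2L1 encodes the protein that, in its closed form, binds CDC20. It read 11.99, 11.94 and 12.06 with DMSO, 11.50, 11.54 and 11.69 with SAHA, 11.58, 12.23 and 11.58 with pargyline, and 10.66, 10.09 and 10.55 with both. The combination arrays lay below all 9 others, whereas the pargyline arrays straddled the DMSO ones. Neither SAHA (-0.42 ± 0.19, adjusted p 0.102) nor pargyline (-0.20 ± 0.19, 0.563) passed, and the combination did, at -1.57 ± 0.19 (5.69e-05). TRIP13, the ATPase that opens closed MAD2, fell with each treatment, at -1.84 with SAHA, -0.60 with pargyline and -2.92 with both. BUB3, a checkpoint scaffold, read 14.05, 14.05 and 14.10 with DMSO, 13.38, 13.34 and 13.42 with SAHA, 14.13, 13.93 and 13.89 with pargyline, and 13.16, 13.12 and 13.27 with both. It fell with SAHA (-0.69 ± 0.06) and with both (-0.88 ± 0.06), and with pargyline the difference was -0.08, with a 95% interval from -0.23 to 0.06. CENPM, a subunit of the inner kinetochore network, fell with all 3, at -1.13 with SAHA, -0.55 with pargyline and -1.49 with both. ZWINT, an outer kinetochore protein that helps recruit the ZW10 complex, did likewise, at -0.63, -0.54 and -1.23.

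All 6 condensation genes fell with SAHA and with both drugs, and 2 of the 6, NCAPD2 and SMC2, fell with pargyline. TOP2A, the topoisomerase that untangles sister chromatids, read 13.79, 13.84 and 14.08 with DMSO, 13.30, 13.26 and 13.54 with SAHA, 13.53, 13.45 and 13.43 with pargyline, and 13.04, 12.50 and 13.04 with both. The SAHA and pargyline arrays overlapped, and the combination arrays lay below both. Its changes were -0.54, -0.44 and -1.05, and the pargyline one did not pass (adjusted p 0.0757). NCAPH, the condensin I kleisin, read 10.01, 10.01 and 10.13 with DMSO, 8.89, 8.52 and 8.58 with SAHA, 9.13, 9.08 and 9.06 with pargyline, and 7.66, 6.24 and 7.30 with both. It fell with both drugs (-2.98 ± 0.29) and from SAHA to the combination (-1.59 ± 0.29), and its second combination array lay more than 1 log2 unit below the others. NCAPG, another condensin I subunit, fell with SAHA (-0.94) and with both drugs (-1.82). NCAPD2, also of condensin I, fell with SAHA (-0.61) and with pargyline (-0.80), and the difference between the drugs, 0.19 ± 0.12, did not pass. On the probe sets used, the ATPases SMC2 and SMC4, shared by both condensins, had the smallest combination falls of the group, at -0.96 and -0.70. For SMC4 this depends on the probe set, as its further ones gave -0.96 and -1.95 with both drugs. The further one of SMC2 gave -0.87.

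The 3 CDC25 phosphatases fell with SAHA and with both drugs, and their pargyline values differed. CDC25A read 9.39, 9.28 and 8.92 with DMSO, 7.92, 7.51 and 7.51 with SAHA, 9.29, 9.03 and 9.06 with pargyline, and 7.64, 6.67 and 7.36 with both. Pargyline overlapped DMSO, with a change of -0.07 and a 95% interval from -0.60 to 0.46, while SAHA gave -1.55 ± 0.24 and the combination -1.97 ± 0.24. CDC25C read 9.35, 9.30 and 9.38 with DMSO, 8.02, 7.96 and 7.95 with SAHA, 9.30, 9.26 and 9.04 with pargyline, and 7.77, 7.05 and 7.46 with both. Its changes were -1.36, -0.14 and -1.92 in the same order, and pargyline did not pass (adjusted p 0.612).

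CDC25B read 11.17, 11.22 and 11.13 with DMSO, 9.54, 9.39 and 9.55 with SAHA, 10.88, 10.86 and 10.82 with pargyline, and 9.66, 9.57 and 9.75 with both. All 3 combination arrays lay above all 3 SAHA arrays, the reverse of what most members showed. The changes against DMSO were -1.68 ± 0.05, -0.32 ± 0.05 and -1.52 ± 0.05, each past the test. The combination differed from SAHA by 0.17, which did not pass (adjusted p 0.0707, 95% interval 0.04 to 0.29).

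The CKS proteins, small adaptors of cyclin-dependent kinases that are close relatives, moved in opposite directions. CKS1B read 13.36, 13.32 and 13.29 with DMSO, 12.76, 12.58 and 12.59 with SAHA, 13.13, 13.13 and 13.05 with pargyline, and 12.61, 12.28 and 12.38 with both. It fell with SAHA (-0.68 ± 0.08) and with both drugs (-0.90 ± 0.08), and gave -0.22 with pargyline (adjusted p 0.109). CKS2 read 14.03, 14.10 and 14.11 with DMSO, 14.22, 14.42 and 14.25 with SAHA, 13.87, 14.15 and 13.90 with pargyline, and 14.72, 14.76 and 14.40 with both. SAHA arrays lay above DMSO arrays but did not pass (0.22 ± 0.11, adjusted p 0.124), and the combination rose by 0.55 ± 0.11 (0.00144). CKS2 also rose from pargyline to the combination by 0.65 ± 0.11 (0.000518), and was higher with SAHA than with pargyline by 0.32 ± 0.11 (0.0293).

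**Figure D2:**
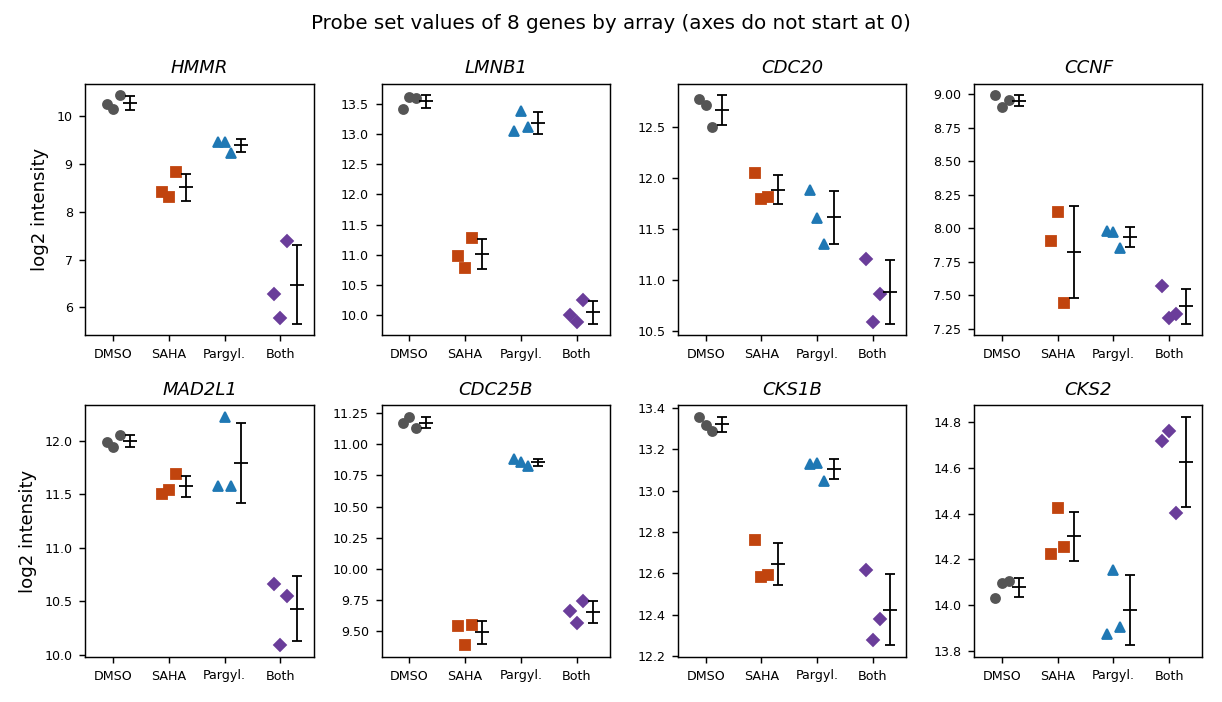
Probe set values of 8 genes on each array (log2 intensity on the y axis, groups on the x axis), with the mean and SD of 3 arrays beside the points; the y axes differ and do not start at 0. HMMR and MAD2L1 are lowest with both drugs, CDC25B is about as low with SAHA alone as with both, and CKS2 is highest with both.

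All 5 genes of anaphase and mitotic exit fell with each treatment. CDC20, the APC/C activator that the checkpoint holds, read 12.78, 12.72 and 12.50 with DMSO, 12.05, 11.79 and 11.82 with SAHA, 11.88, 11.61 and 11.36 with pargyline, and 11.21, 10.59 and 10.86 with both. SAHA and pargyline arrays overlapped each other and lay below DMSO. Its change with pargyline, -1.05 ± 0.17 (adjusted p 0.00355), was the lowest of any member with that drug, and SAHA gave -0.78 ± 0.17. The drugs differed by 0.27, with a 95% interval from -0.12 to 0.66. UBE2C, the ubiquitin-conjugating enzyme of the APC/C, read 13.50, 13.58 and 13.60 with DMSO, 11.61, 11.40 and 11.55 with SAHA, 13.11, 12.82 and 12.67 with pargyline, and 10.80, 10.13 and 10.54 with both. The groups did not overlap, and the fall was 8.39-fold with both drugs (-3.07 ± 0.16).

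PTTG1, securin, read 13.87, 13.84 and 13.74 with DMSO, 13.63, 13.42 and 13.40 with SAHA, 13.61, 13.46 and 13.52 with pargyline, and 13.33, 13.04 and 13.15 with both. Its changes of -0.33, -0.29 and -0.64 passed, and the last was the smallest combination fall among the 39. ESPL1, separase, the protease that securin holds back, fell with all 3, at -1.98, -0.74 and -2.72. CCNF, the F-box protein cyclin F, read 8.99, 8.91 and 8.95 with DMSO, 7.90, 8.12 and 7.44 with SAHA, 7.98, 7.97 and 7.85 with pargyline, and 7.57, 7.33 and 7.36 with both. The SAHA arrays spanned the pargyline ones, and the changes were -1.13, -1.02 and -1.53, each ± 0.14 and past the test.

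The passenger complex brings Aurora B to centromeres and later to the midzone. BIRC5, survivin, read 11.97, 11.78 and 11.74 with DMSO, 11.10, 10.77 and 10.60 with SAHA, 11.12, 10.97 and 10.98 with pargyline, and 10.02, 8.98 and 9.71 with both. The single drugs overlapped, at -1.01 ± 0.23 and -0.81 ± 0.23, and the combination stood below both at -2.26 ± 0.23. CDCA8, borealin, fell with SAHA (-2.16) and with both drugs (-2.87), and with pargyline gave -0.72, which did not pass (adjusted p 0.0611).

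Of the 8 spindle genes, SAHA lowered 6, pargyline 5 and the combination all 8. HMMR, a microtubule-associated protein of spindle poles, read 10.24, 10.14 and 10.44 with DMSO, 8.40, 8.30 and 8.83 with SAHA, 9.45, 9.47 and 9.23 with pargyline, and 6.28, 5.78 and 7.38 with both. The 4 groups were apart, and the combination change of -3.79 ± 0.34, or 13.9-fold, was the deepest among the 40. TPX2, the activator of Aurora A, read 13.28, 13.28 and 13.37 with DMSO, 12.68, 12.47 and 12.64 with SAHA, 12.93, 12.81 and 12.73 with pargyline, and 12.04, 11.58 and 12.05 with both. It fell with each treatment, at -0.71, -0.49 and -1.42. PRC1, which bundles the central spindle, read 13.31, 13.26 and 13.18 with DMSO, 12.38, 12.09 and 12.07 with SAHA, 12.73, 12.84 and 12.66 with pargyline, and 11.64, 11.16 and 11.55 with both. No group of PRC1 overlapped another, and the falls were -1.07, -0.51 and -1.80.

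NUSAP1, a microtubule-bundling protein, read 13.35, 13.25 and 13.32 with DMSO, 13.10, 13.01 and 12.90 with SAHA, 12.68, 12.68 and 12.58 with pargyline, and 12.46, 11.78 and 12.14 with both. It fell with pargyline (-0.66 ± 0.14, adjusted p 0.0109) and gave -0.30 ± 0.14 with SAHA (0.11), so its pargyline arrays lay below its SAHA arrays. The difference between the drugs, 0.36 with a 95% interval from 0.05 to 0.66, did not pass (0.0592). TROAP, also called tastin, read 9.36, 9.41 and 9.49 with DMSO, 7.57, 7.29 and 7.12 with SAHA, 8.89, 8.66 and 8.27 with pargyline, and 7.34, 6.69 and 7.20 with both. SAHA and combination arrays overlapped, and the change between them was -0.25, with a 95% interval from -0.69 to 0.20. The spindle proteins SPAG5 (astrin) and TACC3 fell with both drugs, at -2.00 and -1.81. DLGAP5 (HURP), which stabilises kinetochore fibres, fell with both at -1.26 and gave -0.39 with SAHA and -0.38 with pargyline, neither of which passed. In cytokinesis, RACGAP1 and ECT2, which together position the contractile ring, fell at -1.10 and -0.84 with both drugs and at -0.49 and -0.48 with SAHA. With pargyline RACGAP1 fell by 0.36 and ECT2 gave -0.45 (adjusted p 0.0632).

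The 2 deepest SAHA falls were in LMNB1 and FOXM1, of the envelope and the regulators. LMNB1, lamin B1 of the nuclear lamina that is taken apart in mitosis, read 13.42, 13.60 and 13.59 with DMSO, 10.99, 10.78 and 11.27 with SAHA, 13.04, 13.38 and 13.11 with pargyline, and 10.01, 9.89 and 10.26 with both. Pargyline lay just below DMSO at -0.36 ± 0.14 (adjusted p 0.13), and the falls were -2.52 ± 0.14 with SAHA and -3.49 ± 0.14 with both. FOXM1, the transcription factor of late cell cycle genes, read 11.19, 11.26 and 11.07 with DMSO, 9.06, 8.88 and 8.61 with SAHA, 10.59, 10.79 and 10.68 with pargyline, and 9.21, 8.73 and 8.74 with both. SAHA and the combination overlapped, at -2.32 ± 0.15 and -2.28 ± 0.15, and the difference between them was 0.04, with a 95% interval from -0.28 to 0.37. CDCA3, which helps degrade the mitotic inhibitor WEE1, read 11.06, 11.07 and 10.90 with DMSO, 8.99, 8.71 and 8.89 with SAHA, 10.16, 10.04 and 9.85 with pargyline, and 7.77, 6.84 and 7.59 with both. Its groups were apart, and the falls were -2.15, -0.99 and -3.61.

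Adding pargyline to SAHA lowered 26 of the 40 genes further, with a median log2 change of -0.71 against -0.02 over all genes and 10 falls of at least 2-fold. Over all genes 8.71% fell and 7.88% rose between these groups, and 0.819% fell at least 2-fold. HMMR and NCAPH changed most, by -2.03 and -1.59. The 14 genes that did not pass included FOXM1, TROAP, CDC25A, CDC25B, CKS1B, CKS2, BUB3 and CCNF. Without the second combination array 22 genes passed as lower, against 5.28% of all genes, and the median was -0.54. A fit of the SAHA and combination arrays alone passed 12 as lower, against 5.13% of all genes. In that fit HMMR and NCAPH had adjusted p of 0.0518 and 0.0669. With the replicate number as a block 29 passed as lower, against 10.4% of all genes. CENPF, CKS1B and CDCA8 were added, and CKS2 passed as higher. Adding SAHA to pargyline lowered 39 and raised 1, CKS2, with a median of -1.33 and 23 falls of at least 2-fold, where 23.6% of all genes fell, 23.9% rose and 9.18% fell at least 2-fold. LMNB1 and HMMR changed most, by -3.13 and -2.90.

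SAHA against pargyline passed as lower for 22 genes, 13 of them at least 2-fold, and as higher for 1, CKS2, with a median of -0.53. Over all genes 22.7% were lower, 23.4% higher and 8.86% lower by at least 2-fold. The widest gaps were in LMNB1 (-2.16 ± 0.14) and FOXM1 (-1.84 ± 0.15). The other 17 genes did not pass, among them CDC20, CCNF, PTTG1, TOP2A, BIRC5, TPX2, MAD2L1 and ZWINT. For DLGAP5 the difference was -0.00, with a 95% interval from -0.42 to 0.41. Across the 4 groups the means ran DMSO, pargyline, SAHA, combination from high to low in 34 of the 40 genes. How many of all genes had that order was not counted. NCAPD2, CDC20 and NUSAP1 had SAHA above pargyline, CDC25B and FOXM1 had SAHA lowest, and CKS2 had pargyline lowest and the combination highest. Neighbours in that order often did not differ beyond their spread, as the counts of genes that did not pass show.

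**Figure D3:**
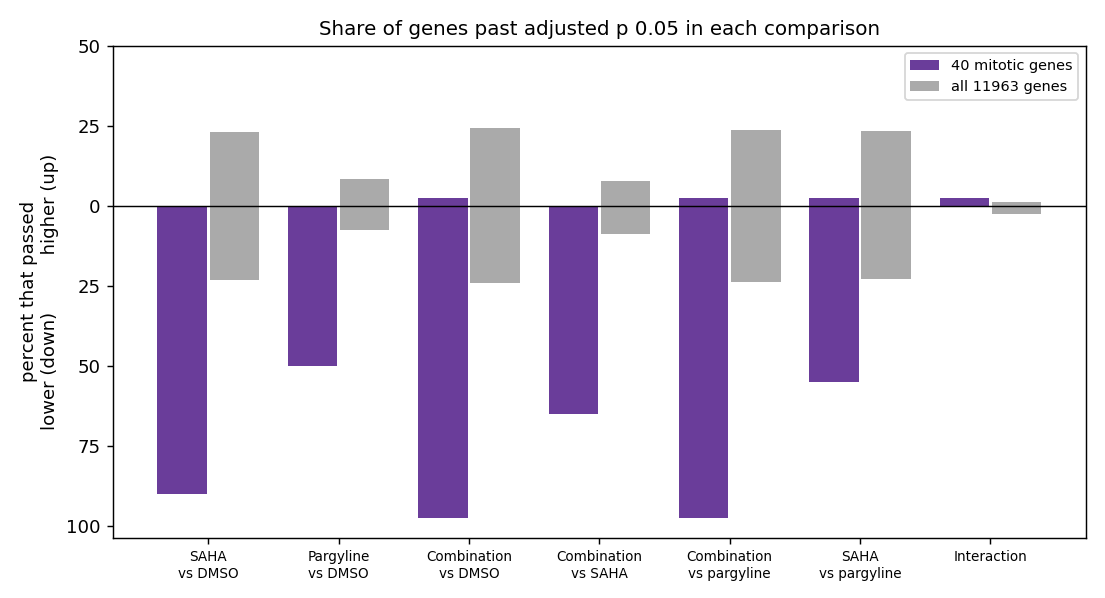
Percent of the 40 genes and of all 11963 genes that passed at adjusted p under 0.05 as lower (bars down) or higher (bars up) in each of the 7 comparisons. The bars of the 40 genes reach 90% lower for SAHA, 50% for pargyline and 97.5% for the combination against DMSO.

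The pargyline count was the least steady. At an unadjusted p under 0.05, 33 of the 40 were lower with pargyline, against 13.4% of all genes, and the median kept its size relative to all genes when an array was left out (-0.54 to -0.48). The number that passed was 9 without either DMSO array 1 or 2, 12 without DMSO array 3, 13, 11 and 8 without pargyline arrays 1, 2 and 3, and 27 without combination array 2. The shares of all genes that were lower moved as well, at 4.19%, 4%, 7.18%, 5.93%, 6.06%, 4.59% and 7.2% in that order. With each array centred on its median 35 passed, against 51.6% of all genes. A fit of the DMSO and pargyline arrays alone passed 29, against 7.26%. With the replicate number as a block 27 passed, against 9.37%, and 19 of them were among the 20. Centring moved the medians of all genes to -0.10 with SAHA, -0.15 with pargyline and -0.17 with both, and the split of all genes from 2768 lower and 2754 higher to 4070 and 2385 with SAHA, from 891 and 1014 to 6168 and 872 with pargyline, and from 2872 and 2903 to 7519 and 2503 with both. Relative to those medians the 40 genes stood at -1.10, -0.52 and -1.79.

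The interaction is the combination change minus the sum of the single-drug changes. It passed for 1 of the 40 genes, CDC25B, at 0.49 ± 0.08 (adjusted p 0.0127, 95% interval 0.31 to 0.66), where 2.44% of all genes passed below 0 and 1.28% above. CDC25B thus lay higher with both drugs than the sum of -1.68 and -0.32. The other 39 did not pass, and 7 of the 40 had an unadjusted p under 0.05, 3 below 0 and 4 above, against 9.59% and 7.59% of all genes. HMMR gave -1.14 (95% interval -2.21 to -0.07, adjusted p 0.252), MAD2L1 -0.94 (-1.54 to -0.35, 0.0935), LMNB1 -0.60 (0.149), CCNF 0.61 (0.152), FOXM1 0.53 (0.217) and CKS2 0.43 (0.167). The median over the 40 was -0.10, and without the second combination array it was 0.05. Without combination array 3, CKS2 and HMMR also passed, at adjusted p of 0.0394 and 0.0125. Of all genes 420 (3.51%) then passed below 0 and 236 above.

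**Figure D4:**
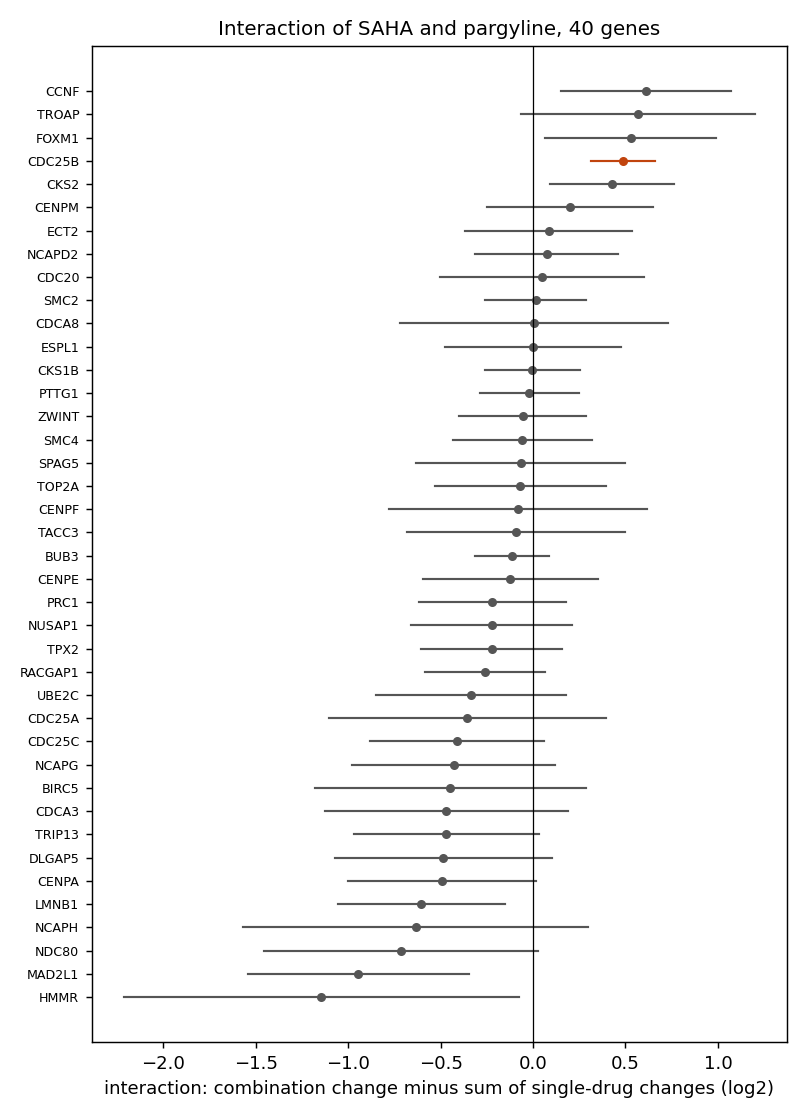
Interaction of SAHA and pargyline for the 40 genes (x axis, log2, combination change minus the sum of the single-drug changes) with 95% intervals from the model. CDC25B, in colour, is the gene that passed, at 0.49; HMMR and MAD2L1 lie lowest, at -1.14 and -0.94.

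For 13 genes the array held further probe sets, 19 in all, and each gave a change below 0 against DMSO under all 3 treatments. These are signs and not calls: with pargyline the further probe set of CDC25A gave -0.42 at an unadjusted p of 0.115. For some genes that did not pass with pargyline the probe set mattered more. Further ones gave -1.15 for SMC4, -0.66 for TOP2A and -1.32 for CENPF (limma, unadjusted p 0.000269, 0.000767 and 0.00049). Another of SMC4 gave -0.25 (0.172). Those of BUB3 gave -0.06 to -0.21, and those of CDC25C -0.19 and -0.03. The brightest probe set, which was used for the values above, gave the smallest change of its gene for 8 of the 13 with SAHA, 9 with pargyline and 8 with both. A further HMMR probe set gave -4.65 with both drugs and -0.99 for the interaction. BIRC5 gave -3.38 and -2.61 on its further probe sets. One of CDC25C, with a mean log2 value of 2.12, gave -0.05 and another -2.29. The other 27 genes, among them CKS1B, CKS2 and CDC25B, had 1 probe set each, so no further one could be set beside it. The probe sets of PTTG1, FOXM1, CENPA and BUB3 are of a class whose probes may also bind related transcripts.

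Genes of the same machines outside the 42 were counted from lists chosen, like the 42, with earlier results of these data known. The genes named are the 2 with the largest change in each. For comparison, 23.1% of all genes fell and 23% rose with SAHA. With pargyline 7.45% fell and 8.48% rose, and with both drugs 24% fell and 24.3% rose. The smaller lists hold few genes, and whether they differed from those shares was not tested. Of 28 other kinetochore and checkpoint genes, 13 fell and 2 rose with SAHA, 10 fell and 1 rose with pargyline, and 20 fell and 3 rose with both, at medians of -0.29, -0.27 and -0.65. PMF1, a subunit of the Mis12 complex, fell with both drugs (-4.73 ± 0.22) and with SAHA (-4.23), and gave -0.42 with pargyline (adjusted p 0.283). HJURP, the chaperone that deposits CENPA, fell with SAHA (-1.38) and with both (-2.50). Of 11 genes of the APC/C and its inhibitor, 5 fell and 1 rose with SAHA, 3 fell with pargyline and 8 with both, led by the inhibitor FBXO5 (-2.25 with both) and the subunit ANAPC15 (-1.48). Of 10 cohesin genes, 7, 2 and 9 fell with SAHA, pargyline and both, and the alternative subunits STAG2 and STAG1 fell at -2.27 and -1.39 with both. In the same order the medians were -0.27, -0.31 and -0.56 for the APC/C list, and -0.46, -0.16 and -0.72 for cohesin.

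Of 6 other genes of condensin and the chromosome surface, 4, 1 and 5 fell in the same order. MKI67, which coats mitotic chromosomes, fell at -1.56 with SAHA and -2.47 with both, and the chromokinesin KIF22 at -0.85 and -1.90. Of 17 other spindle and cytokinesis genes, 9 fell and 3 rose with SAHA, 9 fell with pargyline, and 13 fell and 1 rose with both; the minus-end motor KIFC1 fell at -2.46 and the spindle pole protein ASPM at -2.28 with both. Of 12 DREAM, MuvB and B-MYB genes, 7 fell and 2 rose with SAHA, 4 fell with pargyline, and 8 fell and 2 rose with both. E2F5 fell at -3.09 with SAHA and -1.94 with both, and TFDP1, the dimer partner of E2F factors, at -1.46 and -1.90. Of 6 other lamina genes, 5 fell and 1 rose with SAHA and with both, and LMNB2 and TMPO fell with all 3 treatments, at -1.70 and -1.37 with both. Medians with SAHA, pargyline and both were -0.53, -0.41 and -1.14 for the condensin list, and -0.26, -0.33 and -0.71 for the spindle list. They were -0.50, -0.18 and -0.64 for the DREAM list, and -0.57, -0.45 and -0.86 for the lamina list.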

How the data were processed

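Total RNA of 12 MDA-MB-231 cultures was hybridised to Affymetrix human arrays, 1 per culture. The values the authors deposited are on the log2 scale and come from RMA, per the submitters' processing notes; the software version and whether the 12 arrays were normalized together are not given in the sources used here. The values were used as deposited. Of 22277 probe sets, 19064 are listed for 1 gene. Each of 11963 genes was taken by its probe set with the highest mean. Group means were fitted to all 12 arrays with limma 3.58.1 in R 4.3.3 (lmFit and eBayes), with 8 residual degrees of freedom. The 7 comparisons were adjusted by Benjamini-Hochberg over all genes, two-sided, and a gene passed at an adjusted p under 0.05. Errors after ± are standard errors of this model, and intervals are 95%. The script was tested on simulated data. Alternatives were scaling, probe set choice, a filter on dim genes, the replicate number as a block, array weights, the variance prior, the arrays in the fit, thresholds and leaving out each array. Promoter windows and sequences are from RefSeq (GRCh38.p14).

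The 42 members, the gene lists and the rule for naming genes were chosen with earlier results of these data known. The rule named any member, with every array's value for a fixed set and for the 2 lowest and 2 highest of each comparison, and from each other list the 2 with the largest change among those that passed with both drugs. The number of arrays limits the precision.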

Additional observations from a re-analysis of the deposited data

Results flagged for a closer look

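CDC25B was the only member that passed the interaction test, at 0.49 on the log2 scale (limma, adjusted p 0.0127). Of all genes 2.44% passed below 0 and 1.28% above. HMMR and MAD2L1 gave larger values, -1.14 and -0.94, with wider intervals, and did not pass. SAHA changed CDC25B by -1.68 against DMSO, and all 3 of its SAHA arrays lay below all 3 combination arrays.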

How the results depend on the processing

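No called value of a member changed direction under any alternative run, and 74 values that had not passed changed sign, 54 of them when an array was left out. The count of members lower with both drugs against DMSO was 39 under each array left out, against 22.1% to 24.4% of all genes. The counts lower ran from 35 to 38 for SAHA against DMSO, 8 to 27 for pargyline against DMSO, 21 to 29 for the combination against SAHA, 38 to 39 for the combination against pargyline and 19 to 26 for SAHA against pargyline, and the interaction passed as higher for 1 to 2. The shares of all genes lower ran from 21.2% to 23.2%, 4% to 7.72%, 5.28% to 8.94%, 21.8% to 23.7% and 21.1% to 22.7% in the first 5. The interaction passed as higher for 78 to 236 of all genes. When a change of at least 2-fold was also asked, 22 remained lower with SAHA and 2 with pargyline. The counts were 10 for the combination against SAHA, 23 against pargyline, 13 for SAHA against pargyline and 0 for the interaction. Of all genes 8.75%, 0.351%, 0.819%, 9.18% and 8.86% did so in the first 5. For the interaction 0.92% of all genes remained below 0, and 33 genes above. At an adjusted p under 0.01, 6 were lower with pargyline, against 2.97% of all genes, and 0 had an interaction in limma, where 7 members (3 below 0 and 4 above) have an unadjusted p under 0.05, against 9.59% and 7.59% of all genes. With each array centred on its median, 35 were lower with pargyline, against 51.6% of all genes. A fit of the compared groups alone passed 12 for the combination against SAHA, 37 against pargyline, 39 for SAHA and 29 for pargyline against vehicle, and 25 between the single drugs. These were counts lower, and 5.13%, 22.3%, 22.5%, 7.26% and 21.5% of all genes were lower in the same order. With array weights the interaction passed below 0 for 633 of all genes (5.29%) and above 0 for 446. Among the members these weights passed 2 interactions above 0, CDC25B and CKS2, and 1 below, MAD2L1. The cause was not tested. Arrays with the same replicate number deviated together (r 0.08 to 0.53), with 13 of 18 pairs over 0.1. All 3 such pairs were over 0.1 for pargyline with DMSO (0.12 to 0.27) and for the combination with SAHA (0.26 to 0.53), and not in the other comparisons. Of the 12 arrays, 11 matched best with their own number, a hint from the data and not the design. With the replicate block the counts lower were 36, 27, 39, 29, 39 and 23 in the order of the comparisons with DMSO (SAHA, pargyline, both), the combination against SAHA and against pargyline, and SAHA against pargyline, and 1 interaction was higher. In that order 24%, 9.37%, 26.8%, 10.4%, 24.4% and 23.6% of all genes were lower with the block. The interaction was higher for 275 of all genes with the block.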
